A study of Homo sapiens with 7 samples.

Results

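The miR-200 family was followed in HepG2 cells treated with siRNAs against TEAD1. Its members were taken by name: hsa-miR-200b-3p, hsa-miR-200a-3p and hsa-miR-429 from a cluster on chromosome 1, and hsa-miR-200c-3p and hsa-miR-141-3p from a cluster on chromosome 12. These are 5 of the 2652 mature miRNAs counted in each of 7 small RNA libraries. HepG2 is an established human hepatocellular carcinoma line, and TEAD1 is a DNA-binding factor at the end of the Hippo pathway. One library came from untreated wild-type cells (0 h). The other 6 came from cells labelled as TEAD1 knockdown, 1 each for siRNA 1 and siRNA 2 at 24, 36 and 48 h. All cells were grown in serum-supplemented medium. No library labelled as control siRNA was among them, so effects of transfection, of culture time and of TEAD1 loss cannot be told apart. TEAD1 mRNA is not measured in small RNA libraries. The libraries of a time received different siRNAs, so in comparisons of times the spread that p-values measure includes any difference between the siRNAs. Separate cultures are not stated, so the rest of that spread may be technical.

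The miR-200 family is known for holding epithelial cells in an epithelial state. Its members repress the mRNAs of ZEB1 and ZEB2, factors that silence E-cadherin, and ZEB1 and ZEB2 in turn repress both miR-200 clusters. Loss of the family accompanies the epithelial-to-mesenchymal transition (EMT). A miRNA picks its targets mainly by its seed, bases 2 to 8 from the 5′ end.

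The mature sequences are shown because the family divides in different ways by seed and by genomic cluster, and results below are given for both divisions. The seed is in capitals and each sequence runs 5′ to 3′, as in the deposited files.
hsa-miR-200b-3p: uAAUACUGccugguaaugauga
hsa-miR-200c-3p: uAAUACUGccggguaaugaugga
hsa-miR-429: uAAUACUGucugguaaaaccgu
hsa-miR-200a-3p: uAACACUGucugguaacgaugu
hsa-miR-141-3p: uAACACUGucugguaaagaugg
The first 3 share the seed AAUACUG and the last 2 share AACACUG, and no other miRNA among the 2652 has either seed. Going from miR-200b-3p to miR-200a-3p, the seeds differ by U4C, counted from the 5′ end. miR-200b-3p and miR-200c-3p come from different chromosomes and differ at 2 of the 22 positions compared (U11G and A22G). miR-200a-3p and miR-141-3p likewise differ at 2 (C17A and U22G). No source used here states how many mismatches the read counting allowed, so reads of such close pairs may have been divided between them in a way the counts do not show.

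RefSeq (GRCh38.p14) had an entry matching each of the 5 sequences. On the plus strand of chromosome 1, miR-200b-3p lies at chr1:1167160-1167181, miR-200a-3p at chr1:1167916-1167937 and miR-429 at chr1:1169055-1169076, so that their first bases fall within 1895 bp. On the plus strand of chromosome 12, miR-200c-3p lies at chr12:6963742-6963764 and miR-141-3p at chr12:6964155-6964176, 413 bp apart. GENCODE v29, also on GRCh38, places miR-200c-3p and miR-141-3p in introns of the long noncoding RNA MIR200CHG. For the chromosome 1 members it lists no gene other than their own hairpins, while RefSeq has a noncoding host gene, MIR200BHG, that starts 4283 bp before miR-200b-3p.

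miR-200b-3p and miR-200c-3p, the most abundant members of the clusters, had different values over time, as described below. Because the clusters have separate promoters, the windows from 250 bases before to 50 bases after the start of the host genes are shown. Both were searched on both strands for CACCTG, the E-box bound by ZEB1 and ZEB2, and for GGAATG, the core of the TEAD motif. Matches are in capitals.
MIR200BHG (RefSeq GRCh38.p14, chr1:1162627-1162926, plus strand): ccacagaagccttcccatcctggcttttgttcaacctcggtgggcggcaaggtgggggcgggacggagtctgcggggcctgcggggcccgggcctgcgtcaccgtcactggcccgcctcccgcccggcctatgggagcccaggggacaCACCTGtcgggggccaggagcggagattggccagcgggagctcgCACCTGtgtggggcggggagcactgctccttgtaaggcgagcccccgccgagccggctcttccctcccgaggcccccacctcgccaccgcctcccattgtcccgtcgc
MIR200CHG (RefSeq GRCh38.p14, chr12:6962995-6963294, plus strand): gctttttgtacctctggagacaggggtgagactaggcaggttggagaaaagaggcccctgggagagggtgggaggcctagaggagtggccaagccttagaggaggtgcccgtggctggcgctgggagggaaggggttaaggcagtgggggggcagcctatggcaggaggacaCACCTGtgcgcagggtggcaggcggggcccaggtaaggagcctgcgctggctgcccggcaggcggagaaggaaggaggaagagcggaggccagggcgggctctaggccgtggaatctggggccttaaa
CACCTG begins 102 and 58 bases before the MIR200BHG start and 78 bases before the MIR200CHG start. Of 35116 promoter windows of this length, 20.6% hold CACCTG on either strand. GGAATG is in neither window and in 14.0% of all windows. Such a match describes letters, not a bound site.

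Libraries held 13134601 to 15591345 reads, of which 6171851 in untreated cells and 1920832 to 3739729 in siRNA-treated cells were assigned to a miRNA, or 43.1% against 13.4% to 26.5% of all reads. Levels are counts-per-million (CPM) values over miRNA reads after TMM scaling, which aligns libraries on the bulk of their miRNAs. They are given with exact 95% Clopper-Pearson intervals, and intervals cover counting error only. The first principal component of log2 CPM over the 458 tested miRNAs held 63.1% of the variance. It set both 48 h libraries and the 36 h library of siRNA 2 (10.6 to 14.05) apart from the other 4 libraries (-9.49 to -7.86). The libraries labelled 36 h thus stood on opposite sides, and edgeR fits that rest on them are given with and without them where both could be run. Correlations over libraries are given only with them. Of the hepatocyte miRNAs, miR-148a-3p stood at 18414 CPM and miR-192-5p at 2479 CPM in untreated cells, while miR-122-5p stood at 45.5 CPM.

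The family was scarce in HepG2 cells. In untreated cells the 5 guides summed to 159 reads, 29.6 CPM. Of 12 epithelial miRNAs outside the family, miR-205-5p (6.90 CPM), miR-375-3p (2.05 CPM) and miR-203a-3p (1.12 CPM) stood lower than this sum. The rest stood higher, among them miR-182-5p at 4035 CPM. hsa-miR-200c-3p led the family in all 7 libraries, with 56.7% to 84.9% of its guide reads. In untreated cells it stood at 20.3 CPM (109 reads, interval 16.7 to 24.5) and ranked 261 of 2652 by reads. hsa-miR-200b-3p followed at 6.34 CPM (34 reads, 4.39 to 8.86), with no overlap between these intervals. hsa-miR-200a-3p stood at 1.86 CPM (10 reads, 0.894 to 3.43). hsa-miR-141-3p and hsa-miR-429 stood at 0.559 CPM each (3 reads, 0.115 to 1.63), which could not be told from miR-200a-3p at this depth. A mean count of at least 10 was required for testing, and miR-200b-3p, miR-200c-3p and miR-200a-3p passed, 3 of the 5.

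**Figure D1:**
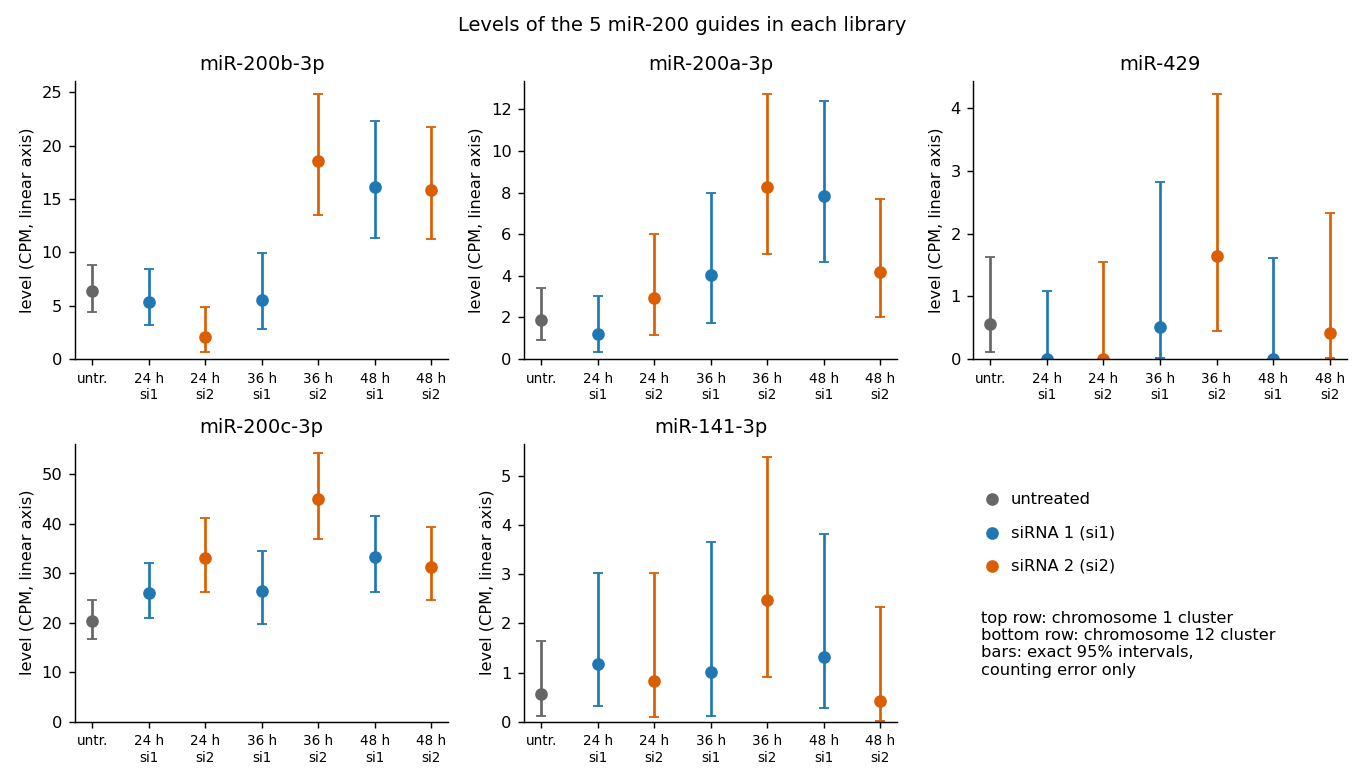
CPM of each guide (linear y axis, one scale per panel) in each of the 7 libraries (x axis), with exact 95% intervals for counting error as bars. miR-200b-3p sits between 15.9 and 18.6 CPM in siRNA 2 at 36 h and both 48 h libraries, and between 2.09 and 6.34 CPM in the other 4, while miR-200c-3p is highest in siRNA 2 at 36 h (44.96).

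In the chromosome 1 cluster, miR-200b-3p and miR-200a-3p stood higher in both 48 h libraries than in both 24 h libraries. miR-200b-3p, which targets ZEB1 and ZEB2, stood at 5.32 CPM (18 reads) with siRNA 1 and 2.09 CPM (5 reads) with siRNA 2 at 24 h. At 48 h it stood at 16.2 CPM (37 reads) and 15.9 CPM (38 reads). The intervals at 48 h, 11.4 to 22.3 and 11.2 to 21.8, lay above those at 24 h, 3.15 to 8.41 and 0.679 to 4.88. At 36 h it was 5.57 CPM (11 reads) with siRNA 1 and 18.6 CPM (45 reads) with siRNA 2, so the former was near the 24 h level and the latter near the 48 h level. The ratio of siRNA 2 to siRNA 1 at 36 h was 3.34 (exact 95% interval 1.70 to 7.15).

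For 48 h against 24 h, the log2 fold change of miR-200b-3p was 2.06 ± 0.71 (SE). Its adjusted p was 0.244 (edgeR quasi-likelihood test, Benjamini-Hochberg over all tested miRNAs). It did not pass the threshold of 0.05 (unadjusted p = 0.0240). In that fit, with 7 libraries and 458 miRNAs, 0% passed, while 84 miRNAs (18.3%) reached an unadjusted p under 0.05. The other tools, limma-voom and DESeq2, called 0 and 23, with miR-200b-3p at an adjusted p of 0.259 and 0.101. Without both 36 h libraries it rose by 2.03 ± 0.51 (edgeR adjusted p = 0.000546), in a fit where 134 of 467 miRNAs (28.7%) passed. Those higher at 48 h were 51, 10.9% of all tested. It also passed with siRNA 1 at 36 h left out (adjusted p = 0.00326) and with siRNA 2 at 36 h left out (0.000520), where 26.6% and 28.4% of miRNAs passed. In the fit without both, it rose by 2.37 with total miRNA counts as the scale and by 1.80 with all reads as the scale (adjusted p = 0.000546 and 0.0232), where 34.3% and 12.6% of miRNAs passed. If the spread of the 36 h pair is real, fits without it understate the error and their p-values.

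miR-200a-3p, which lies 756 bp after miR-200b-3p, had fewer reads. It stood at 1.18 CPM (4 reads) and 2.93 CPM (7 reads) at 24 h with siRNA 1 and siRNA 2, and at 4.05 (8 reads) and 8.25 CPM (20 reads) at 36 h. At 48 h it stood at 7.86 CPM (18 reads) and 4.17 CPM (10 reads). Both 48 h libraries lay above both 24 h libraries for miR-200a-3p and miR-200b-3p, as they did for 28.2% of all tested miRNAs. The intervals of miR-200a-3p at 24 h (0.322 to 3.03 and 1.18 to 6.03) overlapped those at 48 h (4.66 to 12.4 and 2.00 to 7.67) in 3 of 4 pairings. Its log2 fold change for 48 h against 24 h was 1.58 ± 0.73 (edgeR adjusted p = 0.292). It was not tested without both 36 h libraries, because its mean count then fell below 10.

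miR-429, the third chromosome 1 member, had 9 reads in all. None were in either 24 h library or in siRNA 1 at 48 h, where 3 reads, the limit taken for a count of 0, equal 0.886 and 1.25 CPM at 24 h and 1.31 CPM at 48 h. The upper bounds of the exact intervals were 1.09, 1.54 and 1.61 CPM. It had 1 read in siRNA 1 at 36 h, 4 reads in siRNA 2 at 36 h and 1 read in siRNA 2 at 48 h. No difference in miR-429 was detectable at this depth.

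miR-200c-3p, the most abundant member, differed little between 24 h and 48 h. It stood at 26.0 and 33.0 CPM (88 and 79 reads) at 24 h with siRNA 1 and siRNA 2, and at 33.2 and 31.3 CPM (76 and 75 reads) at 48 h. These values overlap, and the log2 fold change was 0.13 ± 0.39 (edgeR adjusted p = 0.853), or 0.12 ± 0.33 (0.828) without both 36 h libraries. At 36 h it stood at 26.3 CPM (52 reads) and 44.96 CPM (109 reads). That pair differed by more than counting error, with a ratio of siRNA 2 to siRNA 1 of 1.71 (1.22 to 2.43). miR-141-3p had 1 to 6 reads in each library, 0.417 to 2.48 CPM. Its lowest value was in siRNA 2 at 48 h and its highest in siRNA 2 at 36 h, and the intervals of all 7 libraries overlapped.

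The difference between clusters did not depend on how libraries were scaled, because it can be read within each library. It rested mostly on miR-200b-3p and miR-200c-3p, since miR-429 had 9 reads in all and miR-141-3p had 21. The chromosome 1 cluster gave 47 of 159 guide reads in untreated cells, 29.6% (95% interval 22.6 to 37.3). At 24 h its share was 19.3% (12.5 to 27.7) with siRNA 1 and 12.9% (6.85 to 21.5) with siRNA 2. At 48 h its share was 41.0% (32.6 to 49.9) and 39.2% (30.6 to 48.3). The intervals at 48 h thus lay above those at 24 h, while 3 of the 4 overlapped that of untreated cells. At 36 h the share was 27.0% (17.4 to 38.6) with siRNA 1 and 37.5% (30.5 to 44.9) with siRNA 2. These shares were not tested across libraries.

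**Figure D2:**
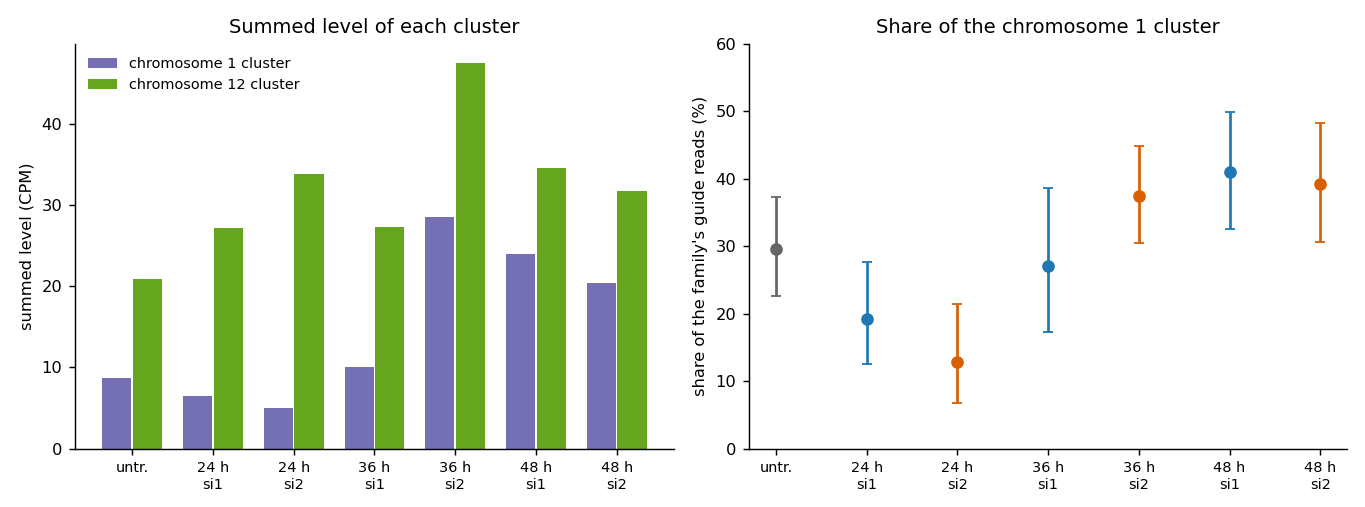
Left, summed CPM (y axis) of the guides of each cluster by library (x axis). Right, the chromosome 1 cluster's percentage of the family's guide reads with exact 95% intervals, from 12.9% and 19.3% at 24 h to 39.2% and 41.0% at 48 h (grey untreated, blue siRNA 1, orange siRNA 2).

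Division by seed showed less movement in percentage points, but miR-200b-3p and miR-200c-3p share a seed, so it cannot show a difference between them. The AAUACUG group (miR-200b-3p, miR-200c-3p and miR-429) held 91.8% of guide reads in untreated cells (86.4 to 95.6), and 84.3% to 92.98% in the siRNA-treated libraries. The lowest share, in siRNA 1 at 48 h, had an interval of 77.05 to 90.03, which overlapped that of untreated cells. The AACACUG group (miR-200a-3p and miR-141-3p) made up the rest. Its share with siRNA 1 was 7.02% (3.08 to 13.4) at 24 h and 15.7% (9.97 to 23.0) at 48 h. With siRNA 2 it was 9.68% (4.52 to 17.6) and 8.80% (4.48 to 15.2). The intervals at 24 h and 48 h overlapped for each siRNA.

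Against untreated cells, no member passed in the fit of all 7 libraries. Over the 3 times, log2 fold changes were 0.67 ± 0.43 for miR-200c-3p, 0.51 ± 0.74 for miR-200b-3p and 1.15 ± 0.78 for miR-200a-3p (edgeR adjusted p = 0.900 each). Their median was 0.67, beside -0.05 for all 458 tested miRNAs, of which 0% passed. An unadjusted p under 0.05 was reached by 23 (5.02%). By limma-voom 0 were called and by DESeq2 1, which was no member. Without both 36 h libraries 10.7% passed, and no member did (0.36 ± 0.53 for miR-200b-3p and 0.65 ± 0.37 for miR-200c-3p). miR-200c-3p lay above untreated in 6 of 6 siRNA-treated libraries, as did 10.3% of tested miRNAs, while miR-200a-3p did in 5 and miR-200b-3p in 3.

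At 24 h against untreated, miR-200b-3p had a log2 fold change of -0.73 ± 0.83, miR-200a-3p of 0.08 ± 0.90 and miR-200c-3p of 0.54 ± 0.48 (edgeR adjusted p = 0.997 each). At 36 h the values were 0.94 ± 0.84, 1.71 ± 0.87 and 0.81 ± 0.49 (0.946 each). At 48 h they were 1.33 ± 0.84 (0.473), 1.66 ± 0.87 (0.371) and 0.66 ± 0.48 (0.535). By edgeR 0% passed in each of these fits, and 2.4%, 4.15% and 11.6% had an unadjusted p under 0.05. By DESeq2 1, 7 and 12 were called, none of them members, and by limma-voom 0 in each. All 3 times share the lone untreated library. Without both 36 h libraries, 2.78% of miRNAs passed at 24 h, again with no member (-0.65 ± 0.60 for miR-200b-3p and 0.59 ± 0.41 for miR-200c-3p). In that fit miR-200b-3p at 48 h stood at 1.38 ± 0.57 (edgeR adjusted p = 0.0577), where 25.1% of miRNAs passed. With total counts as the scale, miR-200b-3p passed at 1.69 (0.0287) and miR-200c-3p at 1.02 (0.0452), as did 24.6% of miRNAs. With all reads as the scale they stood at 0.22 (0.778) and -0.45 (0.510), where 39.6% passed.

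**Figure D3:**
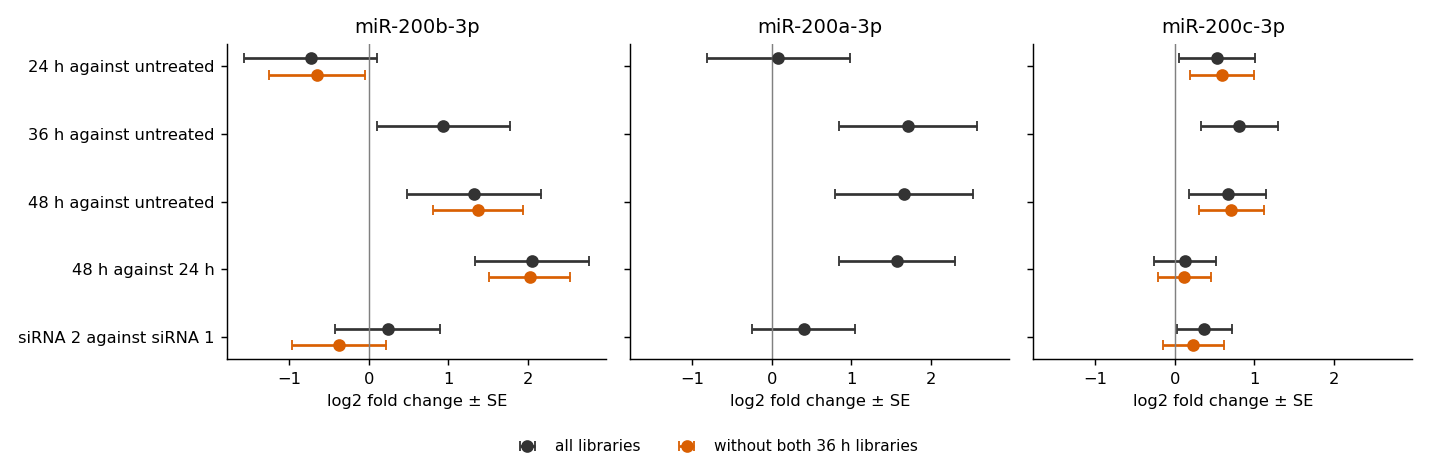
Log2 fold change with its SE (x axis) of the 3 tested guides in 5 comparisons (y axis), from all libraries (black) and without both 36 h libraries (orange, not fitted for miR-200a-3p). For 48 h against 24 h miR-200b-3p stands near 2 in both fits (2.06 and 2.03) and miR-200c-3p near 0 (0.13 and 0.12).

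The direction against untreated cells depended on the scale, since miRNA reads were a smaller part of the siRNA-treated libraries. The 5 guides summed to 29.6 CPM in untreated cells and to 33.7, 37.4 and 58.5 CPM with siRNA 1 at 24, 36 and 48 h. With siRNA 2 they summed to 38.9, 75.9 and 52.1 CPM, so that all 6 libraries lay above untreated. With CPM taken over all reads instead, unassigned reads included, the sum was 11.1 in untreated cells. It was 8.09, 5.18 and 9.61 with siRNA 1 and 5.96, 14.01 and 9.46 with siRNA 2, so that 1 of 6 lay above, as for miR-200c-3p alone. With that scale the log2 fold change over the 3 times was -0.41 for miR-200c-3p and -0.51 for miR-200b-3p, and the median of all miRNAs was -1.13.

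**Figure D4:**
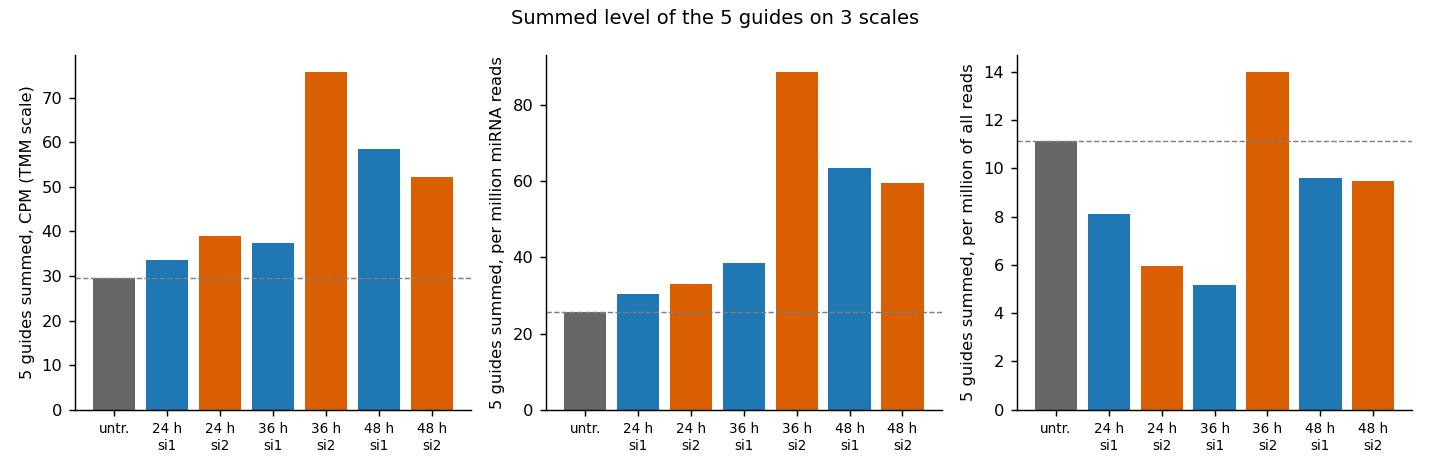
Sum of the 5 guides by library (bars, x axis) as CPM after TMM scaling, CPM of unscaled miRNA reads and CPM of all reads (y axes from 0); the dashed line marks untreated (29.6, 25.8 and 11.1). The 6 siRNA-treated libraries lie above the line on the first 2 scales, and on the last 1 of them does (siRNA 2 at 36 h, 14.01).

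Between the siRNAs, with time as a factor, the log2 fold change of siRNA 2 against siRNA 1 was 0.24 ± 0.66 for miR-200b-3p, 0.40 ± 0.65 for miR-200a-3p and 0.37 ± 0.34 for miR-200c-3p (edgeR adjusted p = 0.992 each). Of 435 miRNAs 0% passed, and 6 (1.38%) had an unadjusted p under 0.05. DESeq2 and limma-voom also called 0. The sign for miR-200b-3p depended on the 36 h pair: it was -0.37 ± 0.59 without both 36 h libraries. At 48 h the ratio of siRNA 2 to siRNA 1 was 0.981 for miR-200b-3p (0.607 to 1.59) and 0.943 for miR-200c-3p (0.676 to 1.31).

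The arms of the hairpins were unequally represented. The hairpins of miR-200b and miR-200c are printed (RefSeq GRCh38.p14, plus strands) to show the arms, in capitals, with the 5p arm first.
MIR200B (chr1:1167104-1167198): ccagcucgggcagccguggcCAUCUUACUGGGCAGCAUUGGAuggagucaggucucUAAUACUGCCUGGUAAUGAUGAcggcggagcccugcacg
MIR200C (chr12:6963699-6963766): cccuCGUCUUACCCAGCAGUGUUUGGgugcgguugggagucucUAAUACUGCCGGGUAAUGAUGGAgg
Over the 7 libraries pooled, the 3p arm held 588 of 589 reads of miR-200c (99.8%, interval 99.1 to 99.996). It held 188 of 202 reads of miR-200b (93.1%, 88.6 to 96.2). Of miR-200a it held 77 of 129 (59.7%, 50.7 to 68.2), and of miR-141 21 of 28 (75.0%, 55.1 to 89.3). The 5p arm of miR-200a, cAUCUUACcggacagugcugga, thus came close to its guide, with 10 reads each in untreated cells. It stood at 0.886 and 1.25 CPM at 24 h, 4.05 and 2.89 CPM at 36 h, and 3.49 and 5.42 CPM at 48 h with siRNA 1 and siRNA 2. Both 48 h values lay above both 24 h values, as for its guide, but its mean count was below 10 and it was not tested. miR-200b-5p had 0 to 4 reads, miR-141-5p 0 to 2 and miR-200c-5p 1 read in all. The 4 opposite arms together summed to 1.18 to 7.09 CPM.

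Other miRNAs with epithelial or EMT roles gave calls in both directions. Of 12 epithelial miRNAs outside the family, 10 were tested, and for 48 h against 24 h their median log2 fold change was -0.57, beside 0.03 for all tested miRNAs and 1.58 for the 3 tested guides. None passed in the full fit. Without both 36 h libraries 4 of 10 fell and 1 rose, where 28.7% of all miRNAs passed. miR-101-3p, which targets EZH2, fell by 2.95 ± 0.23, miR-96-5p by 1.19 ± 0.22, miR-182-5p by 0.66 ± 0.21 and miR-30a-5p by 0.65 ± 0.20, while miR-192-5p rose by 0.55 ± 0.21. With total counts as the scale 2 fell (miR-101-3p and miR-96-5p) and 1 rose, where 34.3% of all miRNAs passed. With all reads 1 fell (miR-101-3p) and 0 rose, where 12.6% passed. miR-205-5p, which shares the ZEB mRNAs as targets with the miR-200 family, stood at 6.90 CPM in untreated cells and 2.36 to 8.73 CPM after siRNA. Its log2 fold change for 48 h against 24 h was 0.76 ± 0.59 in the TMM fit without both 36 h libraries (edgeR adjusted p = 0.351).

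Of 12 mesenchymal or EMT-promoting miRNAs, 9 were tested in the full fit and none passed for 48 h against 24 h (median 0.12, or -0.03 with all reads as the scale). Without both 36 h libraries 8 were tested, 3 rose and 2 fell, where 28.7% of all miRNAs passed and 10.9% rose. miR-143-3p, abundant in smooth muscle and fibroblasts, rose by 1.19 ± 0.25, miR-222-3p by 0.92 ± 0.21 and miR-100-5p by 0.58 ± 0.20. miR-31-5p fell by 0.94 ± 0.24 and miR-21-5p by 0.57 ± 0.20. With total counts as the scale the same 3 rose and 0 fell, beside 34.3% of all miRNAs passing. With all reads 0 passed, beside 12.6%. The miRNA whose log2 CPM was most like that of miR-200c-3p among 275 abundant ones was miR-9-5p (Pearson r = 0.97 over 7 libraries). It was followed by miR-12136 (0.94) and miR-6866-5p (0.92), and all were lowest in the untreated library. Between the guides, r was 0.76 for miR-200c-3p with miR-200a-3p, 0.68 for miR-200b-3p with miR-200a-3p and 0.45 for miR-200b-3p with miR-200c-3p. These are descriptions over libraries that share 1 scale.

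Markers of other cells differed in whether they moved with the chromosome 1 cluster. The 6 blood markers summed to 15.7 CPM in untreated cells, 15.7 and 15.5 CPM at 24 h, 25.3 and 77.96 CPM at 36 h, and 46.7 and 35.04 CPM at 48 h. The sum was mostly miR-451a, an erythroid miRNA (11.7 CPM untreated, 32.1 to 73.0 CPM in the 3 libraries where miR-200b-3p was high), while miR-223-3p, of myeloid cells, had 0 reads in all 7. miR-451a was 1 of 6 tested. From 24 h to 48 h it rose by 1.53 ± 0.59 in the full fit (edgeR adjusted p = 0.250), where 0% of miRNAs passed. Without both 36 h libraries it rose by 1.51 ± 0.38 (edgeR adjusted p = 0.000485), where 28.7% of miRNAs passed and 10.9% rose. The 6 fibroblast and endothelium markers summed to 458 CPM untreated, 442 and 505 CPM at 24 h, 1064.5 and 1067 CPM at 36 h, and 839 and 836 CPM at 48 h. In that sum miR-143-3p stood at 159 CPM untreated and at 745 and 707 CPM at 36 h. miR-126-3p stood at 293 CPM untreated and at 300 and 337 CPM at 36 h, and miR-214-3p was at 0 in 5 libraries. Every 48 h value exceeded every 24 h value for miR-143-3p, miR-145-5p, miR-199a-3p and miR-126-3p, but not for miR-199a-5p or miR-214-3p. Between these times miR-126-3p went from 237 to 373 CPM under siRNA 1 and from 334 to 437 under siRNA 2. For the scarce miR-145-5p, siRNA 1 gave 0.886, 3.04 and 8.73 CPM in order of time, while siRNA 2 gave 0, 10.3 and 4.17. The chromosome 1 cluster stood at 10.1 and 28.5 CPM at 36 h. The 4 muscle markers summed to 876 CPM in siRNA 1 at 36 h and to 21.0 to 52.8 CPM in the other 6. miR-1-3p alone stood at 867 CPM in that siRNA 1 library. miR-205-5p and miR-203a-3p, of stratified epithelium, summed to 8.01 CPM untreated and to 3.55 and 5.02 CPM at 24 h. They summed to 8.60 and 9.08 CPM at 36 h and to 11.4 and 7.93 CPM at 48 h. miR-375-3p, of glandular epithelium, stood at 2.05 CPM (11 reads) untreated and at 0.295 and 0.418 CPM (1 read each) at 24 h. It stood at 1.52 and 4.13 CPM (3 and 10 reads) at 36 h and at 2.62 and 2.09 CPM (6 and 5 reads) at 48 h. The part of other cells in the miR-200 values was not tested.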

How the data were processed

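Per the labels' protocols, small RNA libraries were made from 2 ug of total RNA with an NEB ligation-based kit. The authors deposited 1 file of raw read counts per mature miRNA for each library. Aligner, counter and build: not given in the sources used here. Rows that name no miRNA were left out of totals and fits; the share of reads without a feature was 56.9% for untreated cells and 73.5% to 86.6% for treated cells. The libraries of siRNA 1 and siRNA 2 served as the replicates of each time. Members and lists were chosen with earlier results of these data known.

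The test was edgeR 4.0.16 (R 4.3.3; quasi-likelihood, TMM, mean count of at least 10, Benjamini-Hochberg, threshold 0.05) with untreated and the 3 times as groups in 1 fit, with the lone untreated library assumed as variable as the rest. Each SE is the log2 fold change divided by the square root of F. Log2 CPM used a prior count of 2. Sequences came from RefSeq and the deposited files, loci from GENCODE v29. Alternatives were DESeq2 1.42.0, limma-voom (limma 3.58.1), other scales and filters, and libraries left out. Scripts were tested on simulated counts. Named were all members, their opposite arms, list members by their calls or levels, and the 3 miRNAs most correlated with the most abundant member (mean count of at least 50).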

Additional observations from a re-analysis of the deposited data

Results flagged for a closer look

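Among the 6 siRNA-treated libraries, 9 miRNAs (5 guides and 4 opposite arms) were examined for a library far from the others. Of these, 2 met the check. Chance meets it in about 1 in 20 groups of continuous values, a rate that does not hold for counts near 0. For miR-429 the gap between the highest library, siRNA 2 at 36 h (4 reads, 1.65 CPM), and the next was 0.693 of the whole range. For miR-200c-5p it was 1 of the range, since its 1 read lay in siRNA 1 at 48 h and the other 5 libraries had 0. Both rest on 4 reads or fewer.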

How the results depend on the processing

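Counts of called miRNAs were 0 in all 6 comparisons and depended on the 36 h libraries, the scale and the filter; the cause was not tested. Leaving out 1 siRNA-treated library gave 0 to 65 calls over the 3 times, 0 to 14 at 24 h, 0 to 91 at 36 h, 0 to 113 at 48 h, 0 to 131 for 48 h against 24 h and 0 between siRNAs. The nonzero counts came from leaving out siRNA 1 at 36 h (65, 5, 91, 94 and 122) or siRNA 2 at 36 h (31, 14, 14, 113 and 131). Without both there were 50 over the 3 times, 13 at 24 h, 117 at 48 h and 134 for 48 h against 24 h; with total counts, a scale added after the data were seen, 27, 7, 115 and 160, and with all reads, also added, 196, 8, 185 and 59. DESeq2 called 1, 1, 7, 12 and 23 in the order above. All reads as the scale gave 120, 2, 49, 118 and 29, and no count filter gave 12, 2, 10, 39 and 51.

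The replicate block, with the siRNA number as a term, called 0 in each of 5 comparisons, as did the fit without it. The difference between siRNAs correlated across miRNAs at 0.096 between 24 and 36 h, -0.25 between 24 and 48 h and -0.16 between 36 and 48 h. The 36 h libraries stood on opposite sides of the first principal component. Correlations with 36 h therefore cannot decide whether a difference between siRNAs was shared across times.

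For 48 h against 24 h miR-200b-3p stayed between 1.63 and 2.91 in 16 alternatives and passed in 6. One was no count filter (edgeR adjusted p = 0.0455), where 51 of 1560 miRNAs passed. The others all left out 1 or both 36 h libraries, where 12.6% to 34.3% of miRNAs passed, so they are not separate checks. With all reads as the scale, log2 fold changes reversed for miR-200b-3p and miR-200c-3p over the 3 times (-0.51 and -0.41) and at 36 h (-0.19 and -0.35), miR-200c-3p and miR-200a-3p at 24 h (-0.43 and -0.91), and miR-200c-3p at 48 h (-0.45) and for 48 h against 24 h (-0.0234). In the fit without both 36 h libraries with all reads, the reversed values were -0.68 for miR-200b-3p and -0.44 for miR-200c-3p over the 3 times, and for miR-200c-3p -0.43 at 24 h, -0.45 at 48 h, -0.0232 for 48 h against 24 h and -0.12 between siRNAs. miR-200a-3p at 24 h was -0.0238 by limma-voom, and -0.65 to 0.64 with 1 library left out (lowest without siRNA 2 at 24 h). With 1 library left out, miR-200b-3p at 36 h was -0.19 (without siRNA 2 at 36 h) to 1.58, and miR-200c-3p for 48 h against 24 h was -0.0391 (without siRNA 1 at 24 h) to 0.36. Between siRNAs miR-200b-3p was -0.44 and -0.42 without siRNA 1 or siRNA 2 at 36 h, up to 0.86 without siRNA 1 at 24 h, and -0.37, -0.47 and -0.69 without both (TMM, total counts, all reads), while miR-200a-3p was -0.0257 without siRNA 1 at 36 h, up to 1.13 without siRNA 2 at 48 h. Opposite arms do not carry the seed of their guides, so adding them counts hairpins rather than seeds. With each opposite arm counted beside its guide, the AAUACUG group's share was 85.4% in untreated cells and 82.4% in siRNA 2 at 48 h. Both were below the intervals of the guides alone.

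Depth limits the low members: 3 reads equal 0.559 CPM in untreated cells and 0.886 to 1.52 CPM after siRNA.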
